A study of Homo sapiens with 4 samples.

Results

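Serpins are a large family of proteins, most of which trap and inactivate serine proteases, and the plasminogen activation system is one of the protease systems they hold in check. The genes described here are those whose gene symbol on the array starts with SERPIN, together with PLAU, PLAUR and PLAT. They number 35 genes and 49 probes of the 47321 probes on the array, 32 of them serpins with 44 probes. Illumina bead arrays measured expression in MDA-MB453, a human cell line established from a breast cancer and grown in medium with fetal bovine serum. The cells had been separated by green fluorescent protein (GFP): the GFP-positive cells are labelled as cancer stem-like and the GFP-negative cells as not stem-like. There were 4 arrays, 2 for each group, and both groups come from the same line. The RNA was isolated in pairs of 1 GFP-positive and 1 GFP-negative sample on different days, and the text of the series adds that batches of RNA were combined before the arrays, without saying whether an array holds pooled RNA. The promoter or agent behind the GFP signal was not named in the text available here.

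In plasminogen activation, urokinase (PLAU) or tissue-type plasminogen activator (PLAT) cuts the blood-borne zymogen plasminogen into plasmin, a protease that dissolves fibrin and attacks extracellular matrix. The urokinase receptor (PLAUR) is anchored in the cell membrane and holds urokinase at the cell surface, and serpins secreted into the same space bind the activators irreversibly. Other serpins stay inside the cell (the B clade), carry hormones in plasma, or, like SERPINH1, have no protease to inhibit and fold collagen instead. In carcinomas the system is known for its link to invasion.

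Among the genes that changed between the groups were PLAU, PLAUR, SERPINE2 and SERPINB5, all higher in GFP-positive cells, and SERPINB8, which was lower. The promoter windows of these 5, picked with their values known, are shown so that the letters around their starts can be compared. Each window holds the 250 bases before and 50 bases after an annotated transcript start, from RefSeq with the GRCh38.p14 build, read 5′ to 3′ on the strand of the gene. Capitals mark TGANTCA, where N is any base, and GGGCGG or its reverse complement CCGCCC, the GC box bound by SP1. TGANTCA takes in TGAGTCA and TGACTCA, the letters bound by AP-1 transcription factors, and is looser than these. Where a gene has several starts, the window with the most CpG dinucleotides is printed.
PLAU, chr10:73910882-73911181, plus strand: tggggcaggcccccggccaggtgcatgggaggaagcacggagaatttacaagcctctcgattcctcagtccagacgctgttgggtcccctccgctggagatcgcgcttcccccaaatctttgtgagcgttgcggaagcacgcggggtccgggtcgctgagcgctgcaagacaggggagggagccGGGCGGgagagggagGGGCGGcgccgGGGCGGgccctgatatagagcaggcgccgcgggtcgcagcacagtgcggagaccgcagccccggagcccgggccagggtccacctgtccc
PLAUR, chr19:43670120-43670419, minus strand: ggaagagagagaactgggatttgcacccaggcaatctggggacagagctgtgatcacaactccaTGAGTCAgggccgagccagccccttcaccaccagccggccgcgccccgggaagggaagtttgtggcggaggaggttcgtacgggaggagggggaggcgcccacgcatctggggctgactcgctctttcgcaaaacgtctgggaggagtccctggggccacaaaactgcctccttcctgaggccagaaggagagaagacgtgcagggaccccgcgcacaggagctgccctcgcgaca
SERPINE2, chr2:224038591-224038890, minus strand: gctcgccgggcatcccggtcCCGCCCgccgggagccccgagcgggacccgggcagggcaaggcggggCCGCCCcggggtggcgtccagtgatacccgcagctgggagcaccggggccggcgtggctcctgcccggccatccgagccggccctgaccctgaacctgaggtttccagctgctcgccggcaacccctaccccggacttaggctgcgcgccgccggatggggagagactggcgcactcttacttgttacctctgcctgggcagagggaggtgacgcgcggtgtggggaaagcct
SERPINB5, chr18:63476708-63477007, plus strand: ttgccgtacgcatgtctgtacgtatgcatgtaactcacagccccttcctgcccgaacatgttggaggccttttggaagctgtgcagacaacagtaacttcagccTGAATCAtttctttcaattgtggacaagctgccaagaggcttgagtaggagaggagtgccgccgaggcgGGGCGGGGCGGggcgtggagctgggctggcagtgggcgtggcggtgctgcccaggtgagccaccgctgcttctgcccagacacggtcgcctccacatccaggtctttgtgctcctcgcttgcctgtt
SERPINB8, chr18:63969831-63970130, plus strand: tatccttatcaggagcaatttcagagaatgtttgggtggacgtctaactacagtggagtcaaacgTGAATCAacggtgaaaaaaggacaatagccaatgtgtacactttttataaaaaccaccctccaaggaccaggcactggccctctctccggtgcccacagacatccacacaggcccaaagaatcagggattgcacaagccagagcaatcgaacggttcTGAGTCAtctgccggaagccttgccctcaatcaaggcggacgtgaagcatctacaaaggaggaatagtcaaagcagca

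TGANTCA, which reads the same pattern on both strands, begins 186 bases before the start of PLAUR, 146 bases before that of SERPINB5, and 185 and 28 bases before that of SERPINB8. The match reads TGAGTCA at PLAUR and 28 bases before SERPINB8, and TGAATCA at SERPINB5 and 185 bases before SERPINB8. The looser pattern is therefore found near 2 genes that were higher and near the 1 that was lower. The PLAU window shown and the SERPINE2 window shown hold no such match. The GC box GGGCGG begins 66, 51 and 40 bases before the PLAU start, on the SERPINE2 window at 230 and 183 bases before the start, and on the SERPINB5 window at 77 and 72 bases before it, where the copies overlap by 1 base. TGANTCA is present in 7.71% and GGGCGG in 45% of all 35116 promoter windows of this length in the RefSeq table, and 9.37% of all genes in it have TGANTCA in at least 1 window. Among the 27 genes of the family whose windows were searched, TGANTCA was found near 3 of the 10 tested genes and near 5 of the 17 untested ones. PLAT, which was also bright enough to be tested, was left out of these counts and of the CpG counts below. These letter matches describe the windows only.

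Most of the tested genes had more CpG near their start than the untested ones. For the window with the most CpG of each gene, the count ran from 3 to 35 with a median of 22.5 among the 10 tested genes, and from 0 to 12 with a median of 3 among the 17 untested ones. The median over all genes in the table was 16. SERPINB9 had 35 CpG and SERPINE2 31, whereas SERPINA3 (3) and SERPINB8 (9) were the tested genes inside the range of the untested ones. CpG-rich starts are in general common in genes with broad expression, and this count is given without a test.

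**Figure D1:**
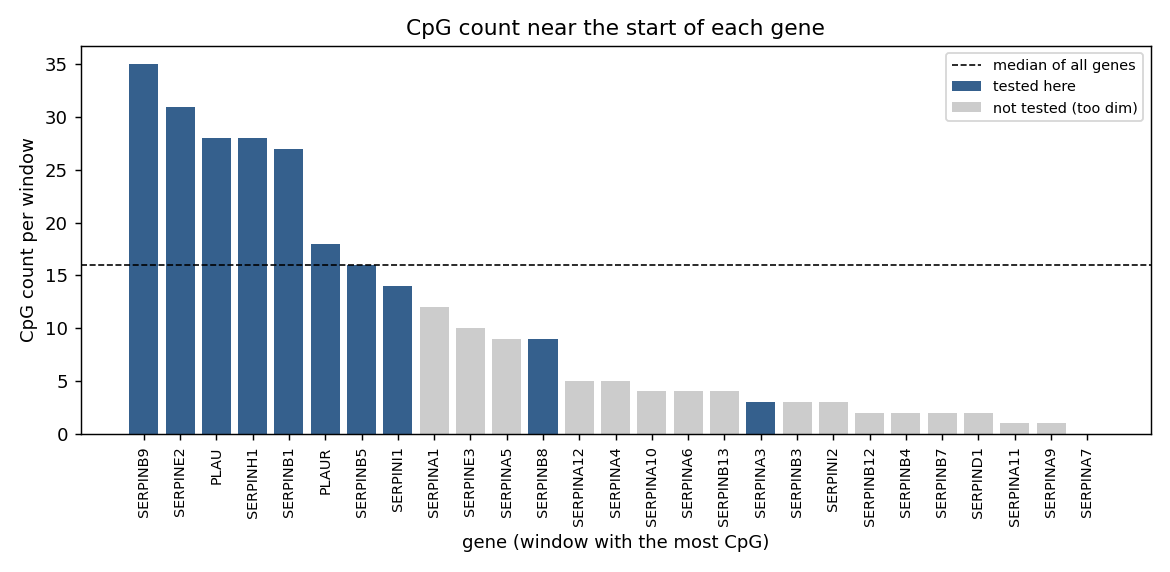
CpG count (y axis, dinucleotides per window) near the start of the 27 serpin and plasminogen activation genes with a promoter window, in order of that count; blue bars are the genes tested here, grey bars those too dim to be tested, and the dashed line is the median of all genes, 16. The 8 bars with the most CpG are all tested genes, and SERPINB8 (9) and SERPINA3 (3) are the tested genes among the grey bars. PLAT, also a tested gene, was left out.

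Most of the family was dim in these cells. A probe was tested where its detection p, its rank among the negative control beads of the array, was under 0.05 on both GFP-positive or both GFP-negative arrays. Of the 49 probes, 14 met this, for 11 of the 35 genes: PLAU, PLAT, PLAUR, SERPINE2, SERPINI1, SERPINB1, SERPINB5, SERPINB8, SERPINB9, SERPINA3 and SERPINH1. The other 35 probes had deposited signals between 93.1 and 269, where the median of all probes on an array was 178 to 192, and 29 of them were detected on no array. Among the 24 genes not tested are most of the serpins that the liver secretes, such as antitrypsin (SERPINA1, 4 probes), antithrombin (SERPINC1), alpha-2-antiplasmin (SERPINF2, the main inhibitor of plasmin) and the C1 inhibitor (SERPING1), and the squamous serpins SERPINB3, SERPINB4 and SERPINB13. Of 17 hepatocyte secretory genes with a probe, 1 was tested, APOA1, and it did not pass (log2 fold change -0.33, limma adjusted p = 0.207).

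The remaining untested genes were SERPINA4, SERPINA5, SERPINA6, SERPINA7, SERPINA9, SERPINA10, SERPINA11, SERPINA12, SERPINA13P, SERPINB7, SERPINB10, SERPINB11, SERPINB12, SERPIND1, SERPINE3, SERPINF1 and SERPINI2. Some of the untested probes were detected on a single array. The brightest SERPINA1 probe had signals of 184 and 269 in GFP-positive cells against 172 and 171, and was detected on GFP-positive replicate 2 only. The brighter SERPINB7 probe had 180 and 249 against 167 and 165, again detected on GFP-positive replicate 2 alone. The brighter SERPING1 probe was detected on 1 array of each group, with 221 and 211 against 208 and 214, and the groups overlap. Serpin genes outside these 35 are not analysed here.

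**Figure D2:**
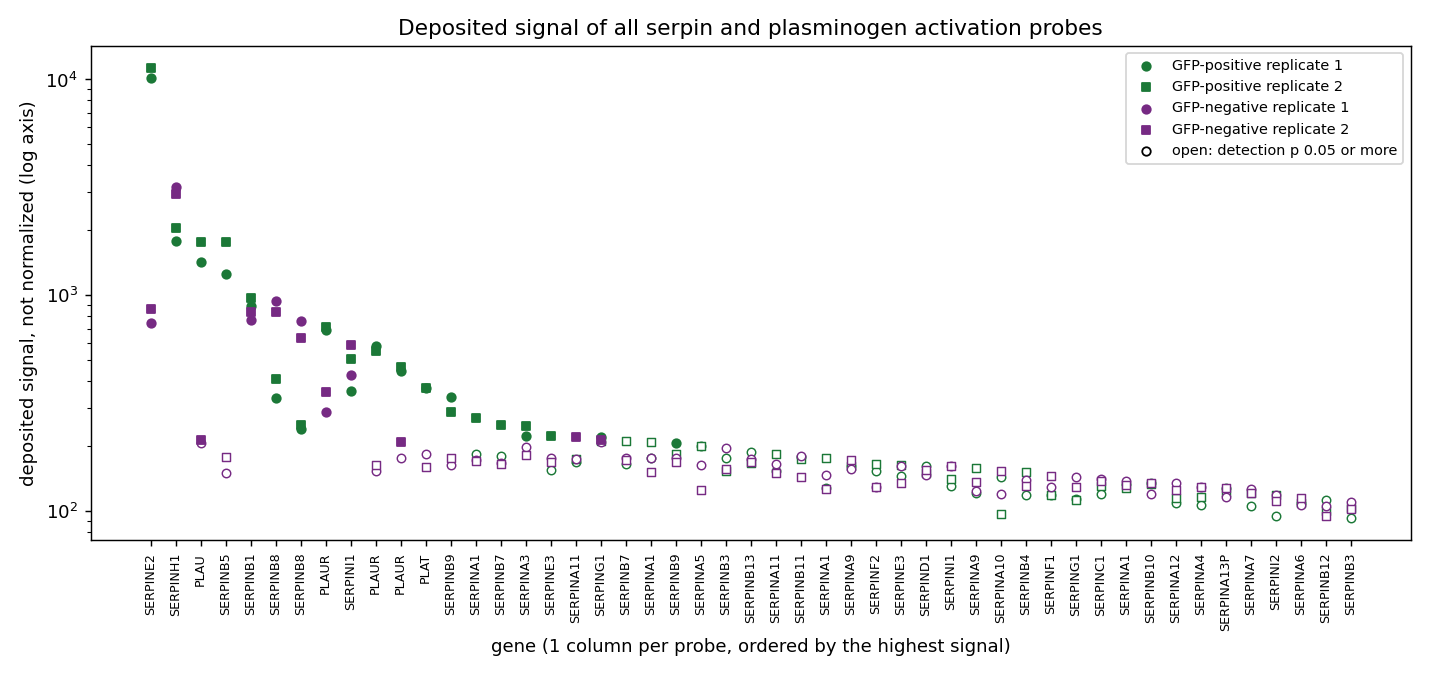
Deposited signal (y axis, log scale, not normalized) of all 49 probes, ordered by their highest signal, with 1 column per probe; green marks GFP-positive and purple GFP-negative arrays, circles are replicate 1 and squares replicate 2, and open symbols have a detection p of 0.05 or more. SERPINE2 stands above all others at 10162 and 11254 on the GFP-positive arrays, and the 35 untested probes lie between 93.1 and 269.

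In the comparison of GFP-positive with GFP-negative cells, 9 of the 14 tested probes were higher, 2 were lower and 3 did not pass (limma, Benjamini-Hochberg over all 18098 tested probes, threshold 0.05). Of all tested probes 40.5% passed, 18.8% higher and 21.7% lower. By their brightest tested probe, 7 of the 11 genes were higher, 1 was lower and 3 did not pass, where 42.6% of all 10955 tested genes passed, 20.3% higher and 22.4% lower. The median log2 fold change was 1.74 over the 11 genes, or 1.26 with the 4 genes that no GFP-negative array detected set at their bound, and -0.05 over all tested genes. These counts and medians are partly set by the detection rule: 7 of the 14 probes passed it only through the GFP-positive arrays, and of all 1961 probes that did so 66% were higher. Among the 7 probes detected on all 4 arrays, 2 were higher, 2 lower and 3 did not pass, where 34.6% of all such probes were called, 14.9% higher and 19.7% lower. Their median log2 fold change was -0.27, against -0.05 for all such probes. Groups without overlap were seen for 13 of the 14 probes, against 72.6% of all tested probes. In arrays of whole RNA, fewer cells that express a gene and less RNA per cell cannot be told apart.

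**Figure D3:**
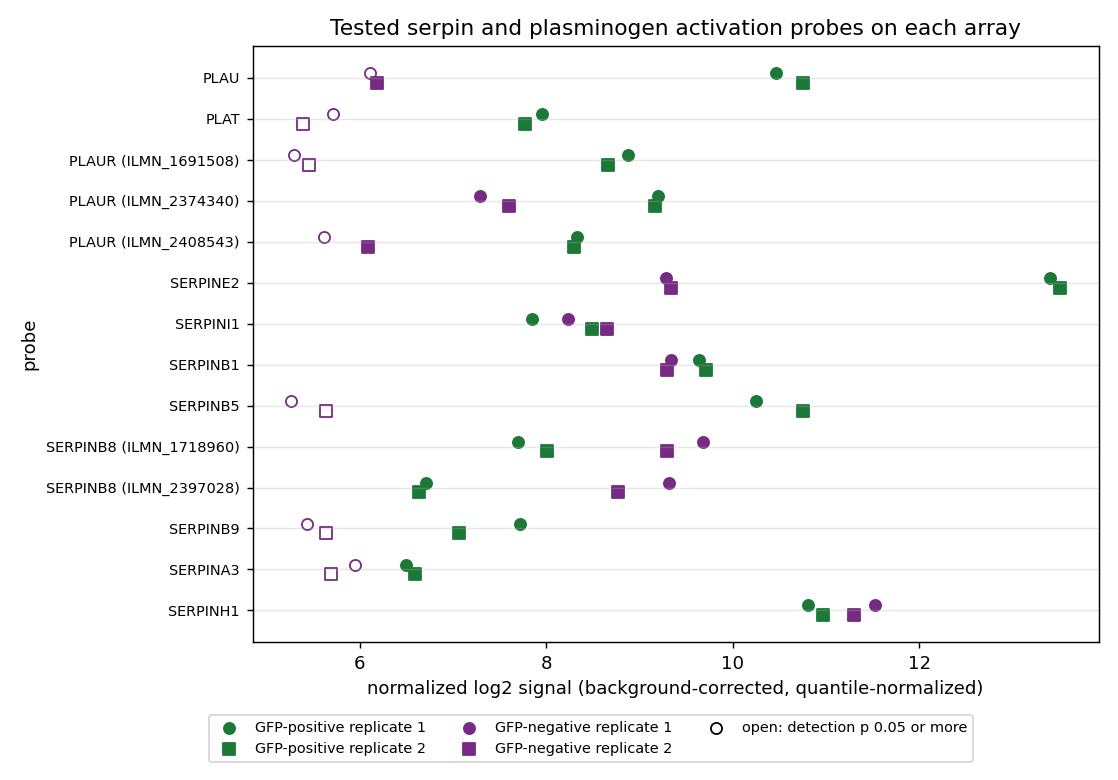
Normalized log2 signal (x axis) of the 14 tested probes on each of the 4 arrays, grouped by role from activators at the top to the collagen chaperone at the bottom; filled symbols have a detection p under 0.05. The green GFP-positive symbols lie to the right of the purple ones for PLAU, PLAT, PLAUR, SERPINE2 and SERPINB5 and to the left for SERPINB8, and they overlap for SERPINI1.

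Both plasminogen activators were higher in GFP-positive cells. The log2 signal of PLAU, the urokinase gene, was 10.46 and 10.75 in GFP-positive cells against 6.11 and 6.18 in GFP-negative cells. Both GFP-negative values were near background, with detection on 1 of the 2 arrays, and the groups were far apart. The log2 fold change was 4.46 ± 0.19 (SE; adjusted p = 2.55e-06, limma). PLAT, the tissue-type activator, which is best known from endothelium and brain, had 7.95 and 7.77 against 5.71 and 5.39. It was not well above background on either GFP-negative array and was at least 3.34-fold higher in GFP-positive cells (adjusted p = 8.31e-05).

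PLAUR, the receptor that binds urokinase at the cell surface, was higher by all 3 of its probes. The brightest probe (ILMN_2374340) had log2 signals of 9.20 and 9.16 against 7.29 and 7.60 and was detected on every array, with a log2 fold change of 1.74 ± 0.19 (adjusted p = 0.000306, limma). The other probes gave larger differences. ILMN_2408543 had 8.33 and 8.30 against 5.61 and 6.09, with detection on 1 GFP-negative array and a log2 fold change of 2.46 ± 0.21. ILMN_1691508 had 8.88 and 8.66 against 5.29 and 5.45, was detected on neither GFP-negative array and was at least 6.29-fold higher. All 3 probes put the groups apart in the same direction, and they differ in the size of the difference. Both GFP-positive arrays thus detected the urokinase gene and its receptor gene by every probe. Of these 4 probes, GFP-negative replicate 1 detected 1, the brightest for PLAUR, and GFP-negative replicate 2 detected 3.

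Among the serpins that inhibit plasminogen activators, SERPINE2 and SERPINI1 could be tested, and they differed in behaviour. SERPINE2 encodes protease nexin-1, a secreted inhibitor of thrombin, urokinase and plasmin. Its log2 signal was 13.40 and 13.51 in GFP-positive cells against 9.28 and 9.34 in GFP-negative cells. Both groups were well above background and each group's arrays lay close together. The log2 fold change was 4.15 ± 0.17 (adjusted p = 2.47e-06, limma), equal to 17.7-fold, and was 4.12 and 4.18 within the replicate numbers. SERPINI1 encodes neuroserpin, an inhibitor of tissue-type plasminogen activator known from neurons. Its brighter probe had 7.85 and 8.49 against 8.23 and 8.65, so the groups overlapped, and its log2 fold change of -0.27 (95% interval -0.88 to 0.34) had an adjusted p of 0.445. The other SERPINI1 probe was detected on no array. SERPINA5, the protein C inhibitor, which also binds urokinase, had signals of 200 and 201 against 163 and 125 and was not detected on any array.

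Among the B clade serpins, which lack a classical signal peptide and mostly act inside cells, SERPINB5 and SERPINB9 were higher, SERPINB8 was lower and SERPINB1 did not pass. SERPINB5 encodes maspin, a serpin that does not inhibit proteases and is known as a product of normal breast myoepithelial cells. Its log2 signal was 10.25 and 10.75 in GFP-positive cells against 5.26 and 5.64 in GFP-negative cells, where it was not well above background. It was at least 20.8-fold higher in GFP-positive cells (adjusted p = 4.07e-06, limma).

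SERPINB8, an intracellular serpin that inhibits furin and trypsin-like proteases in vitro, was the 1 gene of the family that passed the threshold as lower. Its brighter probe had 7.69 and 8.01 in GFP-positive cells against 9.68 and 9.29 in GFP-negative cells. The other probe had 6.71 and 6.63 against 9.32 and 8.77. All 4 arrays detected both probes and the groups did not overlap on either. The log2 fold changes were -1.63 ± 0.21 (adjusted p = 0.000871) and -2.38 ± 0.22 (adjusted p = 0.000147, limma).

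SERPINB9, which protects cells from granzyme B, the death protease of cytotoxic lymphocytes, was at least 2.4-fold higher in GFP-positive cells (7.72 and 7.06 against 5.43 and 5.63, adjusted p = 0.000907, limma). Its GFP-positive arrays were further apart than those of the other genes that rose. Its second probe was detected on GFP-positive replicate 1 only. SERPINB1, an inhibitor of neutrophil elastase and related proteases, was measured well in both groups, at 9.64 and 9.71 against 9.34 and 9.29. The groups did not overlap, but the log2 fold change of 0.36 (95% interval -0.04 to 0.76) did not pass (adjusted p = 0.13). Of 8 blood cell marker genes with a probe, 2 were tested, CD68 and CD14, and neither passed (log2 fold changes -0.40 and -0.31, adjusted p = 0.161 and 0.415, limma, 0 at an unadjusted p under 0.05).

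The remaining tested serpins were SERPINA3 and SERPINH1, and both lay close to the threshold. SERPINA3 encodes antichymotrypsin, an acute-phase inhibitor of cathepsin G and chymases. Its log2 signal was 6.49 and 6.59 against 5.95 and 5.69, low on every array and not above background in GFP-negative cells, and it was at least 1.33-fold higher in GFP-positive cells (adjusted p = 0.0182, limma). That call ended without GFP-positive replicate 1 (adjusted p = 0.074), without GFP-positive replicate 2 (0.119), without GFP-negative replicate 2 (0.0635) and without background correction (0.0767). SERPINH1 encodes HSP47, the collagen chaperone of the endoplasmic reticulum. It was bright in both groups, at 10.81 and 10.97 against 11.53 and 11.30, with no overlap. Its log2 fold change of -0.53 ± 0.18 (95% interval -0.96 to -0.10) missed the threshold (adjusted p = 0.0549) and passed it with the replicate number as a block (adjusted p = 0.0452), while the differences within the replicate numbers were -0.72 and -0.33.

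**Figure D4:**
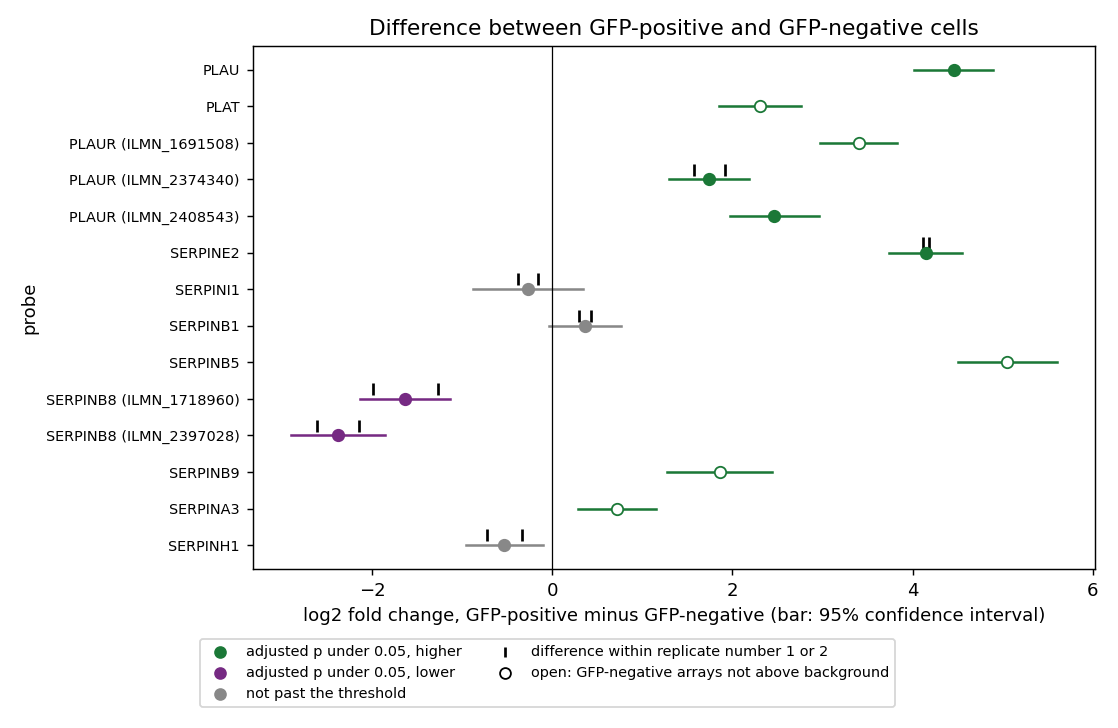
Log2 fold change (x axis, GFP-positive minus GFP-negative) of the 14 tested probes with 95% confidence intervals; colour gives the call, open points are set against GFP-negative values not above background and so give no measured size, and black ticks, for probes detected on every array, are the differences within replicate numbers 1 and 2. PLAU and SERPINE2 lie above 4, both SERPINB8 probes lie below -1, and the intervals of SERPINI1 and SERPINB1 include 0.

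Many of these genes lie in clusters. Along human chromosome 18 the 9 measured B clade genes come in the order SERPINB5, SERPINB12, SERPINB13, SERPINB4, SERPINB3, SERPINB11, SERPINB7, SERPINB10 and SERPINB8 (RefSeq, GRCh38.p14). Only the first and the last were bright enough to be tested, the first higher and the last lower in GFP-positive cells. The other 7 were too dim to be tested. On chromosome 6 SERPINB1 and SERPINB9 both had values above 0, and only SERPINB9 passed. Of 10 measured A clade genes on chromosome 14, SERPINA3 was the only tested one.

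Other genes of the same protease systems were split, and the counts below take each gene by its brightest tested probe, as does the 42.6% of all tested genes that passed. The detection rule bears on them as on the family. Of 22 genes for plasminogen binding and local activation with a probe, 11 were tested, 2 were higher, 5 lower and 4 did not pass, with a median log2 fold change of -0.55. The plasminogen gene PLG itself was too dim to be tested. The list also holds integrin subunits, and both higher genes and some of the lower ones are among these. F12, also lower, is counted among the coagulation genes below too. The higher ones were integrin alpha-5 (ITGA5), part of the fibronectin receptor, at least 6.32-fold, and integrin alpha-3 (ITGA3), which pairs with beta-1 as a laminin receptor, with 2.97 ± 0.20. S100A10, which binds plasminogen at the surface together with annexin A2, fell by 1.83 ± 0.17 on the log2 scale (13.78 ± 0.09 against 15.61 ± 0.08, SD, n = 2). ITGB5, a vitronectin receptor subunit, had -1.15 ± 0.18. The partner gene ANXA2, named after its values were seen, had 0.37 (adjusted p = 0.126, limma). The count of lower genes in this list was 3 when any 1 of these arrays was left out: either GFP-positive array, or GFP-negative replicate 1.

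A list of receptors that clear serpin complexes had 10 genes with a probe, LRP1 among them. Of these, 3 were tested and 0 passed (limma, 0 also at an unadjusted p under 0.05). LRP8 and SORL1, both of the LDL receptor family, had log2 fold changes of 0.14 and 0.13. The other tested gene, LRPAP1, encodes a protein that binds such receptors and is not a receptor itself. Of 23 genes with a probe on a list of plasmin and urokinase substrates, 9 were tested, 5 were higher and 2 lower. Their median was 1.20 against -0.05 for all tested genes. The list also holds MET and MST1R, which are receptors of substrates rather than substrates. Both are among the 9, and MST1R is among the 5 higher. Of these 9, 7 were detected on all 4 arrays, and with detection on all arrays required 3 were higher and 2 lower. PLAUR is itself on that list and among those 3. Thrombospondin-1 (THBS1), a matrix protein, was at least 8.37-fold higher and MST1R, the receptor of macrophage-stimulating protein, at least 4.74-fold higher, while the laminin chains LAMC1 and LAMB3 had -3.29 ± 0.18 and -2.70 ± 0.23.

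Coagulation genes gave 2 higher, 3 lower and 4 not past the threshold of 9 tested (19 with a probe, median -0.39). The endothelial protein C receptor gene PROCR had a log2 fold change of 4.11 ± 0.24 (9.98 ± 0.16 against 5.87 ± 0.41, SD, n = 2) and tissue factor (F3), the cell-surface trigger of clotting, 1.14 ± 0.18. Both were detected on 1 of the 2 GFP-negative arrays. PROS1, which encodes the anticoagulant protein S, had -2.61 ± 0.20, and the thrombin receptor family gene F2RL3 was at least 1.08-fold lower. The list of serine protease inhibitors outside the serpins had 8 tested of 24 with a probe, 1 higher and 3 lower, with a median of -0.23. TFPI, the inhibitor of the tissue factor pathway, was at least 4.68-fold higher. SPINT1, a membrane-bound inhibitor of HGF activator and matriptase, had -1.05 ± 0.21. ITIH1, a heavy chain of inter-alpha-trypsin inhibitor that is not its inhibiting chain, had -0.80 ± 0.21. BST2, an antiviral membrane protein that is on the list but is not a protease inhibitor, had -3.48 ± 0.17. Without GFP-positive replicate 2, 1 gene of this list was lower.

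Proteases of the kinds that serpins inhibit gave 4 higher and 6 lower of 12 tested (23 with a probe, median -0.50). PRSS8 (prostasin), a membrane-anchored trypsin-like protease that SERPINE2 can inhibit, was at least 7.86-fold higher and the trypsinogen PRSS3 at least 7.87-fold higher. PRSS23 and the cathepsin CTSH had -4.02 ± 0.19 and -2.64 ± 0.20. Of 6 tested cathepsins, a grouping chosen after the values were seen, 5 were lower and CTSB did not pass (0.59, adjusted p = 0.0825, limma). Among 18 tested partners of SERPINH1 in collagen folding, collagen chains included, 6 were higher and 6 lower, with a median of -0.36. The lysyl hydroxylase PLOD2 was at least 32.1-fold higher and COL18A1 had 2.42 ± 0.30, while COL5A2 was at least 14.4-fold lower and COL3A1 had -2.92 ± 0.36 with detection on 1 GFP-positive array.

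**Figure D5:**
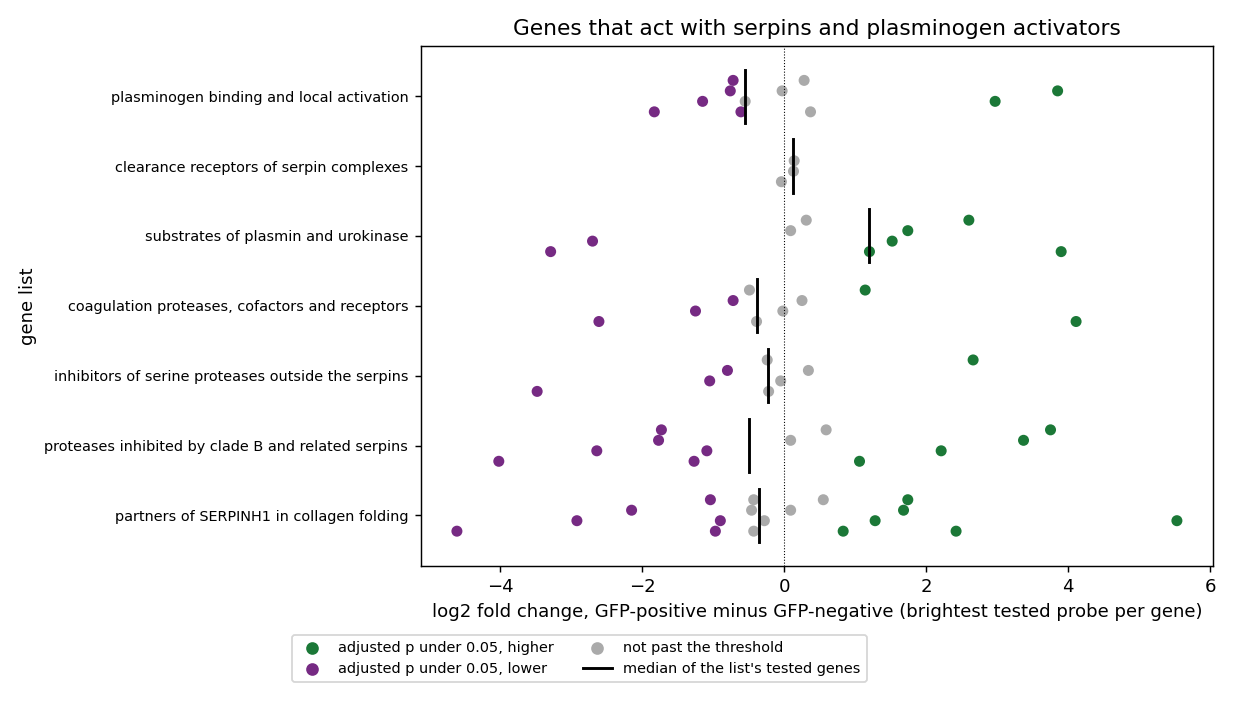
Log2 fold change (x axis, GFP-positive minus GFP-negative) of the tested genes of 7 lists (rows), 1 point per gene by its brightest tested probe, with the median of each list as a black bar. Genes past the threshold lie on both sides of 0 in 6 of the 7 lists, and the 3 tested genes of the clearance receptor list all lie near 0.

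Of 10 fibroblast markers, 3 were tested, the collagens COL1A1, COL1A2 and COL3A1, and each passed the detection rule only through the GFP-negative arrays. All 3 were lower in GFP-positive cells (COL1A2 at least 3.95-fold, COL1A1 with a log2 fold change of -1.04 ± 0.31 and COL3A1 as above). Of all 2030 probes that passed only through the GFP-negative arrays, 56.3% were lower. The SERPINH1 value had the same direction but did not pass, and its 18 tested partners were split, 6 higher and 6 lower. The other 7 fibroblast markers were too dim to be tested. The summed deposited signal of the markers' brightest probes was 1809 and 1757 in GFP-positive cells against 2305 and 2776 in GFP-negative cells. This sum includes the 7 untested markers and was not corrected for background. The part of the fibroblast markers in the SERPINH1 value was not tested. None of 8 endothelial markers was detected on both arrays of a group. Of the luminal markers of the line, ERBB2 was bright in both groups (10.70 ± 0.05 against 12.16 ± 0.09, SD, n = 2) and FOXA1 was detected on every array (8.14 ± 0.36 against 9.08 ± 0.12), both lower in GFP-positive cells (adjusted p = 0.000504 and 0.0126, limma). KRT8 was higher (13.68 ± 0.03 against 8.50 ± 0.78, adjusted p = 2.12e-05), KRT18 did not pass (6.55 ± 0.07 against 6.16 ± 0.39, adjusted p = 0.202), and GATA3 was detected on no array. Of the 9 tested luminal markers 3 were higher, among them the melanophilin gene MLPH (at least 45.6-fold) and the keratin KRT19 (3.20 ± 0.22), 3 were lower, with the adhesion gene ALCAM at -1.47 ± 0.18, and 3 did not pass.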

How the data were processed

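Biotin-labelled cRNA was made from total RNA, per the labels' protocols, and the submitters' processing notes name GenomeStudio 2009.2. Per the file headers the deposited intensity values have had no normalization, and each bead signal has a deposited detection p-value, in steps of 1 in 770. Another deposited table matched quantile-normalized log2 signals within 5e-09 (median 7.53 on each array), so it is uncentred and higher means brighter. No source here states any background subtraction before deposit.

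Signals were processed with limma 3.58.1 in R 4.3.3. With neqc, background was estimated from the detection p-values, an offset of 16 was added, and values were quantile-normalized on the log2 scale. Probes entered the fit if both arrays of either group had a detection p under 0.05 (18098 probes). The model (lmFit, eBayes) had 2 residual degrees of freedom and 5.31 from the prior, took GFP-positive minus GFP-negative, and used Benjamini-Hochberg on its 2-sided p-values. It was tested on simulated data. Exact permutation over 4 arrays could not reach a 2-sided p under 0.333, so each call relies on variance pooled by limma. Separate cultures are not stated in the labels: p-values cover the spread between samples that may differ only technically, and few arrays limit precision.

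Where no array of the dimmer group detected a probe, the text gives a bound ("at least N-fold"). For it, each dim value was raised, where lower, to the dimmest detected probe of its array (log2 of 6.11 and 6.17 for GFP-positive arrays, 6.15 and 6.09 for GFP-negative ones) before the group means were compared. Levels of different probes are not comparable.

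The platform annotation gave 1 symbol for 30111 probes, several for 8 and none here for 17202, and symbols were brought up to date by gene identifier. Every tested gene of the family is named with its values, with other tested probes where they differ. Each related list gives at most 4 names, those with the greatest change past the threshold, or 2 values if no gene passes. The genes and lists were chosen with earlier results of these data known.

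The replicate numbers were taken to mark the pairs that the text of the series places on different days. The labels do not tie a number to a day. Same-numbered arrays deviated together from their groups (r = 0.219, across probes). No block was used in the main fit. Alternatives were no background correction, an offset of 50, cyclic loess, 75th percentile scaling, the deposited log2 table, other detection filters, the replicate number as a block, and leaving out each array.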

Additional observations from a re-analysis of the deposited data

How the results depend on the processing

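Across 13 alternatives, PLAU, PLAT, all 3 PLAUR probes, SERPINE2, SERPINB5 and SERPINB9 stayed higher and both SERPINB8 probes lower, past the threshold in each alternative that tested them. Without background correction the differences were smaller, 3.01 for PLAU, 3.28 for SERPINB5 and 1.13 for PLAT. The deposited table gave the same values. SERPINA3 lost its call in 5 alternatives. SERPINH1 gained a call in 6, with adjusted p down to 0.0163. SERPINI1 turned to 0.05 without GFP-positive replicate 1 (adjusted p = 0.92, limma), ranged from -0.59 to 0.05 over the arrays left out, and otherwise stayed below 0. With the replicate block, 8471 probes passed, and among the 14 tested probes of the family it changed only the SERPINH1 call (adjusted p = 0.0452, paired by number).

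With detection required on all 4 arrays, fewer probes can be tested, by construction. Then 2 probes of the family were higher, and 2155 of all probes. In that setting the higher genes numbered 0 for coagulation, 0 for other protease inhibitors, 1 for plasminogen binding, 2 for proteases and 3 for plasmin substrates, and the lower ones 2 for collagen folding and 0 for fibroblast markers. Without a detection filter 1 hepatocyte gene was lower.

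Leaving out each array in turn gave between 4654 and 7053 called probes, with 2337 to 3298 higher and 2317 to 3755 lower, the lowest totals without GFP-positive replicate 2. In these fits the lone array of a group is assumed to vary like the other group's, and a probe is tested if that array alone detected it. The family had 8 to 10 probes higher and 2 to 3 lower, including probes otherwise too dim to be tested: SERPINA1 (1.32) and SERPINB7 (1.12) without GFP-positive replicate 1, and SERPINA11 (-0.74) without GFP-negative replicate 1. Genes lower ranged from 3 to 4 for plasminogen binding, 1 to 3 for other protease inhibitors, 0 to 1 for clearance receptors (1 without GFP-negative replicate 1), 0 to 1 for blood cell markers (1 without GFP-negative replicate 2), 4 to 6 for collagen folding and 2 to 3 for fibroblast markers. Genes higher ranged from 0 to 1 for hepatocyte genes (1 without GFP-positive replicate 1) and 3 to 5 for proteases. Most genes of the family lie near background, where differences are compressed.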
